A study of Mus musculus with 2 samples.

Results

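The G2 and mitosis genes described here are 50 genes whose transcripts accumulate as cells pass from G2 into mitosis. They were taken by symbol from a list that is in common use for scoring cell-cycle phase, and all 50 were found among the 32285 genes of the count matrices. The rule that set them names symbols and uses no measured value, but they were chosen with earlier results of these data known. The cells were thymic epithelial cells (TECs), sorted as EpCAM+ CD45- TER119- cells from the digested thymus of C57BL/6 mice that were 9 weeks of age by the labels. Droplet-based 3' single-cell RNA sequencing gave 2 libraries, each from TECs pooled over several mice. One pool came from mice 15 days after a single sublethal dose of whole-body γ-irradiation, and the other from age-matched mice that were not irradiated.

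Which library is which could not be settled, so they are called here by their size. The smaller library held 4937 barcodes, of which 3233 cells were kept, and the larger library held 7167 barcodes, of which 5070 were kept. The sample titles call the smaller library the irradiated one, whereas the cell numbers in the study's text and the names of the deposited matrices make the larger library the irradiated one. Every ratio between the libraries is given as larger over smaller, and its direction as an effect of irradiation would turn with that choice. With a single library of each condition, differences between them could not be set against a spread between replicates, and none was tested. The libraries shared 17 barcodes, 5 of them among the kept cells. Kept cells had medians of 13412 and 13004 unique molecular identifiers (UMIs), each UMI marking a captured RNA molecule.

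Entry into mitosis is driven by the kinase CDK1 bound to a B-type cyclin. It is followed by the building of a spindle of microtubules, the attachment of chromosomes through their kinetochores, and a checkpoint that holds the anaphase-promoting complex inactive until all are attached. That complex then marks cyclin B and other proteins for destruction, and the cell divides by cytokinesis. Many genes of this program are silent in resting cells, and their transcription is restrained and then released through elements close to their starts, among them the CCAAT box and the cell cycle homology region (CHR). In the thymic medulla, transit-amplifying mTECs are known as a cycling population from which Aire+ mTECs arise.

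Promoter windows of 250 bases before the gene start, from RefSeq on GRCm38.p6, were found for 43 of the 50 genes, with 47 windows in all because 4 genes had 2 starts. The CHR was searched as TTTGAA or TTCGAA and the CCAAT box as CCAAT, each on both strands. A CHR was found in 46.8% of the windows of these genes and in 17.2% of all 32851 windows. At least 1 CCAAT box was found in 78.7% of their windows against 33.9% of all windows, and 2 or more in 57.4% against 10.1%. Both elements stood in 42.6% of the windows against 6.02% of all, and in none of the windows of these genes did matches of the 2 elements overlap. Windows from 2 starts of the same gene may share bases, and a match is a description of the letters only.

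The 120 bases before the start are shown for 6 genes to make the spacing of the elements visible: the kinase CDK1, 2 partners of the anaphase-promoting complex, a motor, a chromosome enzyme, and Nusap1, which had neither element although it had the largest difference between dividing and resting cells. They are written 5' to 3' along the gene, and capitals mark CHR and CCAAT matches. The starts are those of RefSeq, and for Cdk1 and Ube2c the GENCODE annotation places the gene's first base farther upstream, inside the window. The windows are Cdk1 chr10:69352913-69353032 (- strand), Ube2c chr2:164769809-164769928 (+ strand), Cdc20 chr4:118437344-118437463 (- strand), Kif11 chr19:37376262-37376381 (+ strand), Top2a chr11:99024190-99024309 (- strand) and Nusap1 chr2:119618178-119618297 (+ strand).
Cdk1: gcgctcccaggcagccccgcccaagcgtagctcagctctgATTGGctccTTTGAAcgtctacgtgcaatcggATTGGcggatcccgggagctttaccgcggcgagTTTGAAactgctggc
Ube2c: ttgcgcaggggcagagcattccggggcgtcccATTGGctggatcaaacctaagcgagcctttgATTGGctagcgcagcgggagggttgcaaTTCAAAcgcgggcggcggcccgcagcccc
Cdc20: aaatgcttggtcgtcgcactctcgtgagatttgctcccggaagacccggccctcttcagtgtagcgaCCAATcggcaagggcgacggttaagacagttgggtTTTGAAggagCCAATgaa
Kif11: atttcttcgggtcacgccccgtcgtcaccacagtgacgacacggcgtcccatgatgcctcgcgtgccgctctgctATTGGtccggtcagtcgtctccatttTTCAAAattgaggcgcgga
Top2a: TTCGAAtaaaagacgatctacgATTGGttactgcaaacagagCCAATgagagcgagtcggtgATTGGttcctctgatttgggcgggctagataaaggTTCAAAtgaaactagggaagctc
Nusap1: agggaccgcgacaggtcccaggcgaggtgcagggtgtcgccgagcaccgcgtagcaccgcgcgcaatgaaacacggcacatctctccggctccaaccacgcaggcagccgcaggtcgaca
In Cdk1, Ube2c, Cdc20, Kif11 and Top2a the CHR nearest to the start began at -15, -29, -18, -19 and -23, where -1 is the last base before it. In Cdc20 a CCAAT box lay between that CHR and the start. In the other 4 genes every CCAAT box shown lay farther from the start than that CHR. These genes do not stand for the spacing in the whole set. Over all windows with a CHR, the nearest one began between -8 in Gas2l3 and -198 in Tubb4b. It began at -98 in Mki67 and at -167 in Ccnb2. Genes with a CHR in a window had a median log2 difference between dividing and resting cells of 3.84 over 21 genes, and the 22 genes without one had 4.89. The presence of these letters therefore did not go with a larger difference among the 43 genes.

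Dividing cells were set apart without using the 50 genes. Cells were clustered after the 50 genes and 43 S-phase genes had been left out, and clusters were then classed by the S-phase genes and by 34 other mitotic genes, such as Ccnb1 and Plk1. Cluster C6, with 646 cells, was the only one of 14 classed as dividing, and Plk1, Pbk and Ccna2 were among its leading genes. Epcam, which marks epithelial cells, was at 9.94 UMIs per 10000 in it, and thymocyte genes summed to 0.244. The 10 resting clusters held 6759 cells, and included Aire-high, Ccl21a-high, cTEC-like (C8) and tuft-like (C9) cells. The remaining clusters were C5, with intermediate S-phase levels, C11, led by thymocyte genes, and C13, which was ciliated-like. Levels are UMIs of a gene per 10000 UMIs summed over the cells of a group, with 95% exact Poisson intervals in brackets. These intervals and those of ratios cover counting error only.

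Summed over all 50 genes, the level in the dividing cluster was 103 [102 to 104] in the smaller library and 113 [112 to 113] in the larger one. In the resting clusters it was 8.87 [8.78 to 8.97] and 9.55 [9.47 to 9.63]. The 646 dividing cells, which were 7.78% of all cells and held 13.5% of all UMIs, held 60.4% of the UMIs of these genes. All 50 genes were higher in the dividing cluster, with a median log2 difference of 4.54, against -0.595 over 18588 genes. The share of all genes that were higher was not computed. Of the 50 genes, 39 were at least 8-fold higher, against 0.968% of the 18588 genes with enough UMIs. The dividing cluster was found from genes that vary with these 50, so this difference is a description of the cluster.

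Genes of CDK1 and its partners ranged from 2.15 to 5.06 on the log2 scale. Cdk1 (chr10:69335146-69352938), the kinase itself, stood at 4.86 [4.68 to 5.05] and 5.76 [5.62 to 5.9] in the dividing cluster of the smaller and the larger library and at 0.124 and 0.195 in the resting clusters. Ccnb2, which encodes cyclin B2, stood at 1.1 and 1.38 against 0.0576 and 0.108. Cks1b and Cks2 encode small proteins that bind the kinase. Cks1b was less restricted, at 3.9 and 4.49 against 0.373 and 0.507, than Cks2, at 4.88 and 5.57 against 0.307 and 0.375. Cdc25c, the phosphatase that activates CDK1, had the smallest difference of the group, at 0.503 and 0.498 against 0.105 and 0.118. Its highest resting levels were in the Aire-high clusters C0, at 0.239 and 0.288, and C7, at 0.268 and 0.247. C0 was the higher of them with both libraries pooled, and C7 in the smaller library.

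Among the mitotic kinases and the chromosomal passenger complex, which corrects faulty attachments, the genes of the passenger complex were the most restricted. Aurkb, its kinase, stood at 0.912 [0.835 to 0.996] and 1.03 [0.97 to 1.09] in the dividing cluster and at 0.00996 and 0.0173 in resting cells, a log2 difference of 6.13 [5.88 to 6.4]. Birc5, which encodes survivin, stood at 2.91 and 3.55 against 0.0365 and 0.0633, and its difference was 6.02 [5.89 to 6.16]. Cdca8, the borealin gene, differed by 5.33. Aurka and its activator Tpx2, which act on the spindle poles and microtubules, differed by 5.01 and 4.43. The checkpoint kinase gene Bub1 differed by 5.05, whereas Ttk, another checkpoint kinase gene, differed by only 2.78 and reached 0.109 in the Aire-high cluster C0.

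Genes of the kinetochore and the centromere were led by Ndc80, a part of the microtubule attachment complex, at 0.418 and 0.513 against 0.0102 and 0.0154. The log2 differences were 5.19 for Ndc80, 5.18 for Cenpf, 4.92 for Nuf2, 4.77 for Cenpe and 4.07 for Cenpa, the histone variant that marks centromeres. Hjurp, the chaperone that loads that histone, was the exception, at 1.17 [1.08 to 1.26] and 1.27 [1.2 to 1.33] in dividing cells and 0.415 and 0.375 in resting cells. Its difference was 1.66 [1.58 to 1.73], and its highest resting level, 0.952, was in cluster C10. The 4 kinesin motor genes lay between 3.97 for Kif20b and 5.21 for Kif23, whose product bundles microtubules at the midzone. Kif23 stood at 1.0 and 1.25 against 0.0221 and 0.0392.

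Spindle genes were the widest group. Nusap1 (chr2:119618298-119651244), which encodes a microtubule-binding protein, was at 1.6 [1.5 to 1.71] and 2.01 [1.93 to 2.09] in dividing cells and at 0.0163 and 0.0241 in resting cells. This was the largest difference of the 50 genes, 6.5 [6.3 to 6.72]. Ckap5, which encodes a microtubule polymerase that resting cells also use, had the smallest, 1.46 [1.39 to 1.52], with 1.42 and 1.71 against 0.582 and 0.595. Tubb4b, a beta-tubulin gene, was at 5.73 and 6.24 against 1.57 and 1.52, and reached 3.25 in the tuft-like cells, its highest resting level. Exons of Nusap1 overlap those of Oip5 on the other strand, those of Tubb4b overlap Fam166a, and those of Ube2c overlap Tnnc2. For 15 of the 50 genes such an overlap with another annotated gene exists, and whether reads were counted by strand is not given in the sources used here.

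All 4 genes tied to the anaphase-promoting complex were over 8-fold higher in dividing cells. Ube2c (chr2:164769898-164778822), which encodes the ubiquitin-conjugating enzyme of the complex, stood at 5.57 [5.37 to 5.76] and 7.56 [7.41 to 7.72] against 0.0649 and 0.114, a difference of 6.22 [6.12 to 6.32]. Cdc20, its activator, stood at 1.97 and 2.32 against 0.0306 and 0.0644. The cytokinesis genes Anln and Ect2 differed by 4.56 and 3.28, and Anln stood at 1.03 and 1.06 against 0.0382 and 0.0495.

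Chromosome and envelope genes were split. Top2a, which encodes the topoisomerase that untangles sister chromatids, and Mki67, the Ki-67 gene, differed by 5.78 and 5.52. Top2a stood at 6.86 and 7.57 against 0.12 and 0.145. Hmgb2 (chr8:57511907-57515999), a chromatin protein gene, had the most UMIs of the 50, 17.2 [16.9 to 17.6] and 15.6 [15.4 to 15.9] in dividing cells, but also 1.05 and 1.02 in resting cells. The condensin gene Smc4 differed by 2.61 and the histone chaperone gene Anp32e by 1.83. None of the 3 genes of the nuclear envelope and pore was 8-fold higher. Tmpo, which encodes lamina-binding proteins, stood at 3.83 and 3.89 against 1.13 and 1.16, and the lowest and highest differences of the group were 1.76 for Tmpo and 2.18 for Lbr, which stood at 0.527 and 0.508 against 0.116 and 0.112.

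**Figure D1:**
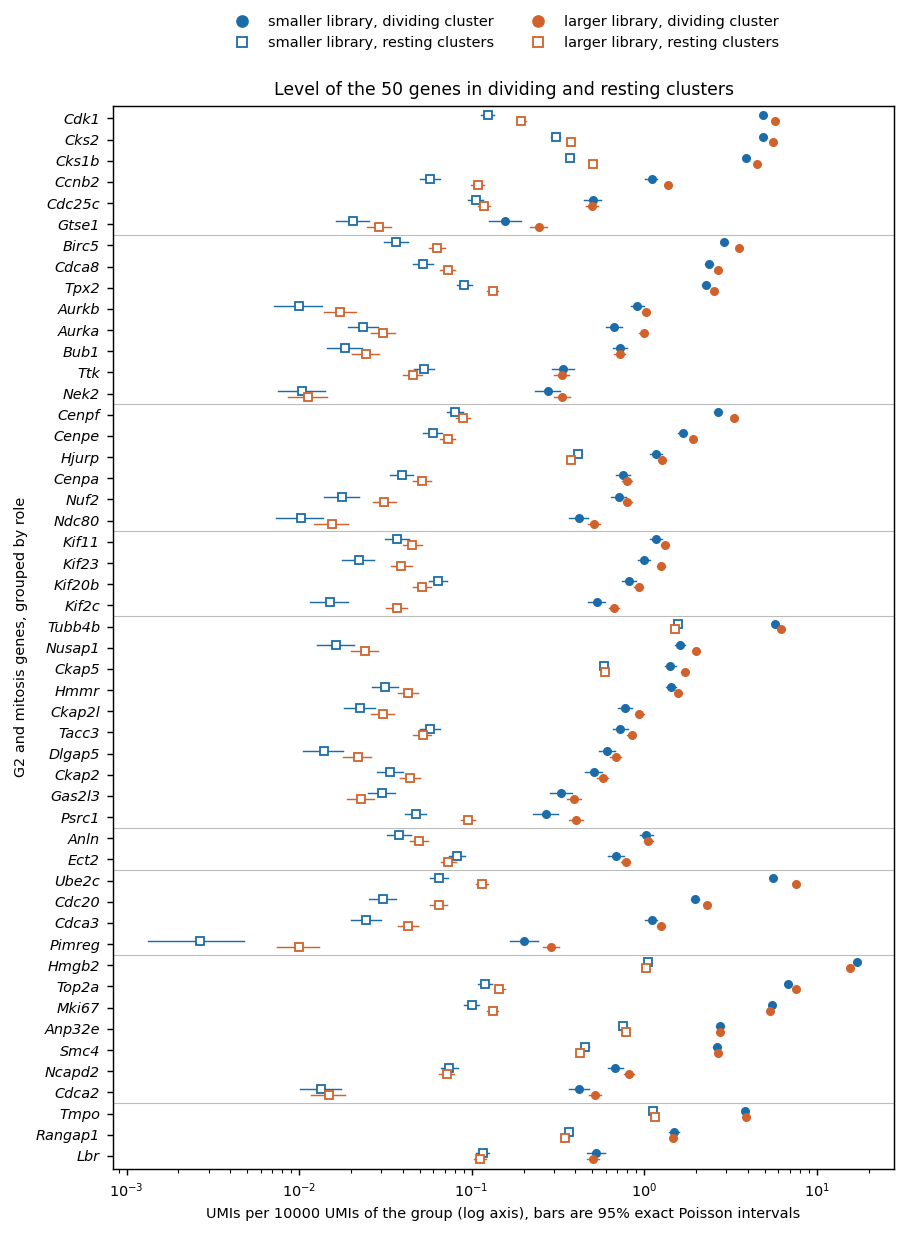
Level of each of the 50 genes, as UMIs per 10000 on a log axis, in the dividing cluster (filled circles) and in the resting clusters (open squares) of the smaller (blue) and the larger (orange) library, with 95% exact Poisson intervals and grey lines between roles. All 50 genes lie to the right in the dividing cluster, and the gap is narrowest for Ckap5, Hjurp and Tmpo.

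Other lists put these values in context. The 34 other mitotic genes had a median log2 difference of 4.66, near that of the 50, but they also set the class of the clusters. Pttg1, the securin gene, was the one of the 34 that was not higher in dividing cells, at 0.629 and 0.783 against 0.927 and 0.95. The 43 S-phase genes had a median of 2.78. The 4 genes of the scoring list that are not among the 50 (Jpt1, Ctcf, G2e3 and Cbx5) had a median of 1.21. Of 20 genes for factors that control these promoters or the G2 checkpoint, 3 were over 8-fold higher in dividing cells: Foxm1 at 4.01, Mybl2 at 3.74 and E2f1 at 3.45. Genes of NF-Y, the factor that binds CCAAT boxes, differed by less than 1 on the log2 scale, with 0.63 for Nfya, 0.85 for Nfyb and 0.59 for Nfyc. Cdkn1a, the gene of the CDK inhibitor p21, was lower in dividing cells than in the resting clusters summed, at 0.242 and 0.884 against 1.83 and 2.54. The resting clusters differed widely in it. With both libraries pooled it ran from 0.379 in C1, the only resting cluster under the 0.677 of the dividing cluster, to 8.91 in C10.

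Single cells showed the same split. Each cell was thinned at random to 4000 UMIs so that depth was equal, and 5 cells with fewer were left out. A dividing cell then had a median of 19 of the 50 genes detected in the smaller library and 20 in the larger one, and a resting cell had 2 in both. Without thinning these medians were 39 and 40 in dividing cells, and 6 and 5 in resting cells. At least 10 of the genes were found in 91.3% [86.2 to 94.9] and 95.% [92.6 to 96.8] of dividing cells, with exact binomial intervals. In resting cells the shares were 0.537% [0.301 to 0.884] and 1.31% [0.982 to 1.72]. In the tuft-like cells they were 0 of 153 and 0 of 147 cells, which allows shares of up to 2.38% and 2.48%. Without thinning, at least 10 of the genes were found in 100% of dividing cells of both libraries and in 13.6% and 13.7% of resting cells. Median depth before thinning was 30425 and 24645 UMIs in dividing cells and 12758 and 11842 in resting cells. Hmgb2 was found in 98.9% and 98.5% of dividing cells after thinning and in 28.4% and 23.9% of resting cells. Pimreg was found in 7.1% and 10.8% of dividing cells and in 0.0358% and 0.303% of resting cells.

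Resting clusters were not alike. Summed levels ran from 6.12 in the Ccl21a-high cluster C1 to 15.1 in C7, an Aire-high cluster in which at least 10 of the genes were found in 3.82% and 7.83% of thinned cells. C7 lay close to the limit of the resting class, with an S-phase level of 9.08 against the limit of 10. A marker list of 21 genes for dividing cells summed to 44.2 in C7 and 44.2 in C5, against 14.9 to 20.1 in the other resting clusters. The level of other mitotic genes in C7, 3.34, was near the 3.19 of the Aire-high cluster C0. Whether C7 held cycling cells was not tested. Cdk1, at 0.485, and Hmgb2, at 2.65, had their highest resting levels in C7. In the tuft-like cells 71.7% of the UMIs of the 50 genes came from 5 of them. Cluster C5, next to the dividing cells in its S-phase level of 16.7, had a summed level of 13.2 [12.8 to 13.5] and 15.3 [15. to 15.5]. Of the 39 genes over 8-fold higher in dividing cells, Cks1b came nearest to its dividing level there, at 1.14 and 1.29 in C5, whereas Ube2c was at 0.171 and 0.203.

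Cluster C11 held 147 cells with Prss16 at 61.3 and thymocyte genes at 60.7 in the smaller and 58.9 in the larger library. With both libraries pooled, thymocyte genes stayed at or under 1.65 in each of the other clusters. In C11 the 50 genes summed to 57.3 [56. to 58.7] and 32.9 [32.2 to 33.6]. The part of the thymocyte genes in these levels was not tested.

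**Figure D2:**
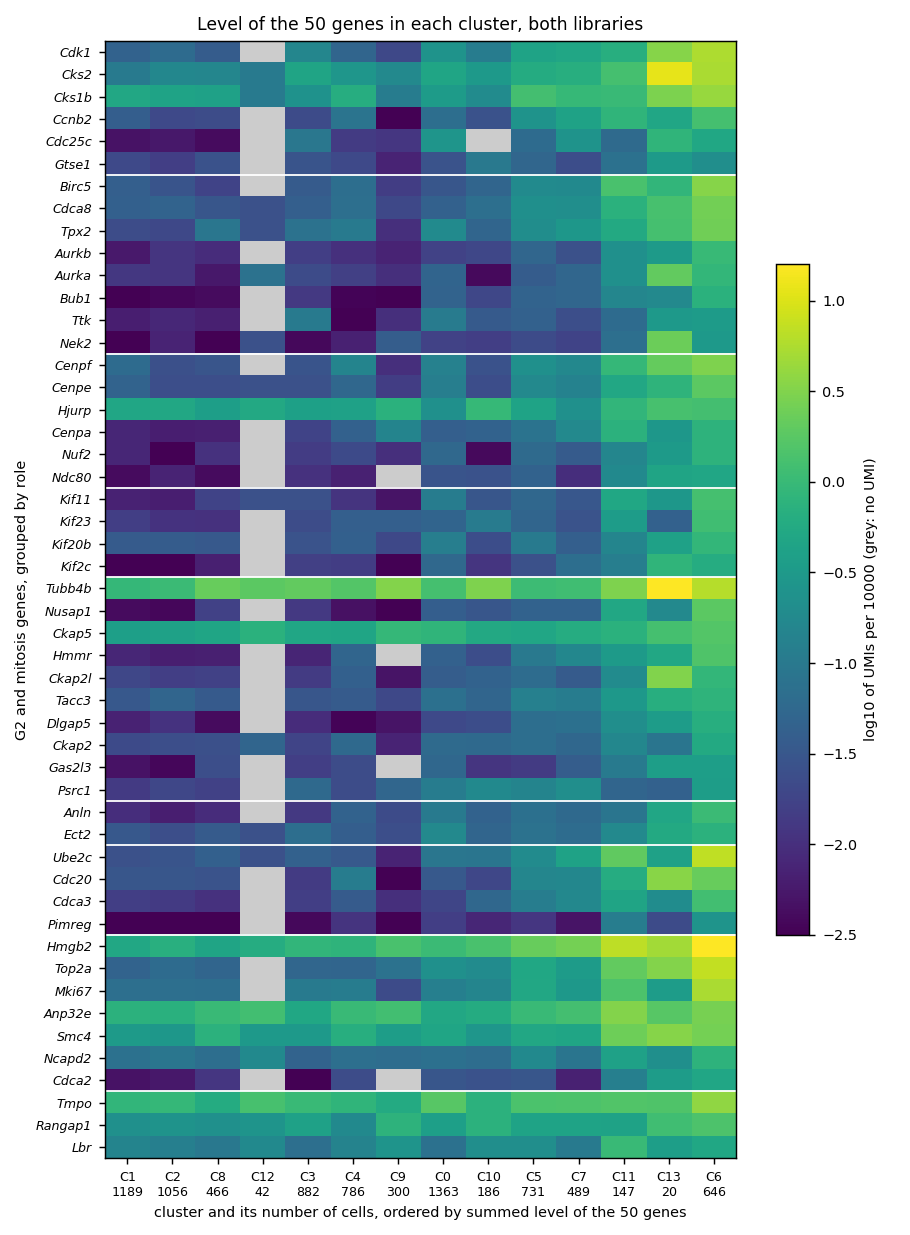
Heat map of the level of the 50 genes (rows, grouped by role) in the 14 clusters (columns, with the number of cells), as log10 of UMIs per 10000 over both libraries, with grey where no UMI was found. Clusters are ordered by summed level, from C1 to the dividing cluster C6, and Tubb4b, Tmpo, Hmgb2 and Anp32e are the rows with the highest levels over the resting clusters.

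The ciliated-like cluster C13 held 20 cells, 7 from the smaller and 13 from the larger library, and its leading genes were Dynlrb2, Mcidas, Zmynd10 and Deup1. All 7 listed ciliated-cell genes were found in it, and they summed to 36.5 UMIs per 10000 against 0.050 in the dividing cluster. Ciliated cells are known to reuse parts of the mitotic program for centriole amplification without dividing. The 50 genes summed to 88.6 [84.4 to 93.] and 88.6 [85. to 92.2] in C13, against 103 and 113 in the dividing cluster. The 5 highest genes gave 53.9% of these UMIs in C13, against 38.3% for the 5 highest in the dividing cluster. The median log2 difference of the 50 genes from the dividing cluster was -0.89. The 43 S-phase genes summed to 10.3 in C13 against 5.82 in resting cells, with a median log2 difference of 0.37. Of the 50 genes, 26 were over 8-fold higher in C13 than in resting cells, against 4.38% of 18470 genes.

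The genes did not all stand high in C13. Of the 50, 12 were above their level in dividing cells, against 53.1% of 11621 genes. Nek2 (chr1:191821444-191833050), whose kinase separates centrosomes, stood at 2.36 [1.71 to 3.16] and 2.32 [1.78 to 2.97] in the 7 and the 13 cells, against 0.276 and 0.335 in dividing cells, a log2 difference of 2.89 [2.57 to 3.19]. Tubb4b (chr2:25222160-25224702), also a tubulin of ciliary axonemes, stood at 21.3 and 26.3, a difference of 2.0 [1.91 to 2.09]. Ckap2l, at 3.37 and 2.99, differed by 1.84 [1.57 to 2.08], Aurka by 1.21 [0.89 to 1.51], Cks2 by 1.14 [1.01 to 1.26] and Cdc20 by 0.67 [0.42 to 0.89]. In both libraries these genes were above the dividing level.

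The genes lowest in C13 against dividing cells came from several roles. Ube2c gave 19 UMIs over the 20 cells, with 0.589 and 0.299 in the smaller and the larger library, and had a log2 difference from dividing cells of -4.01 [-4.78 to -3.4]. Mki67 gave 16 UMIs, with 0.589 and 0.187, and differed by -3.9 [-4.75 to -3.24]. Nusap1 gave 8 UMIs, with 0.321 and 0.0748, and differed by -3.33 [-4.63 to -2.44]. Kif23, needed for cytokinesis, gave 2 UMIs, all in the larger library, and its ratio had a wide interval, -4.41 [-7.78 to -2.88]. Of the other mitotic genes, Ccna2 gave 3 UMIs, while Ccnb1 gave 34 and Plk1 22. Cdkn1a was at 13.4 in C13, above its resting level. Each of these values rests on 20 cells.

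**Figure D3:**
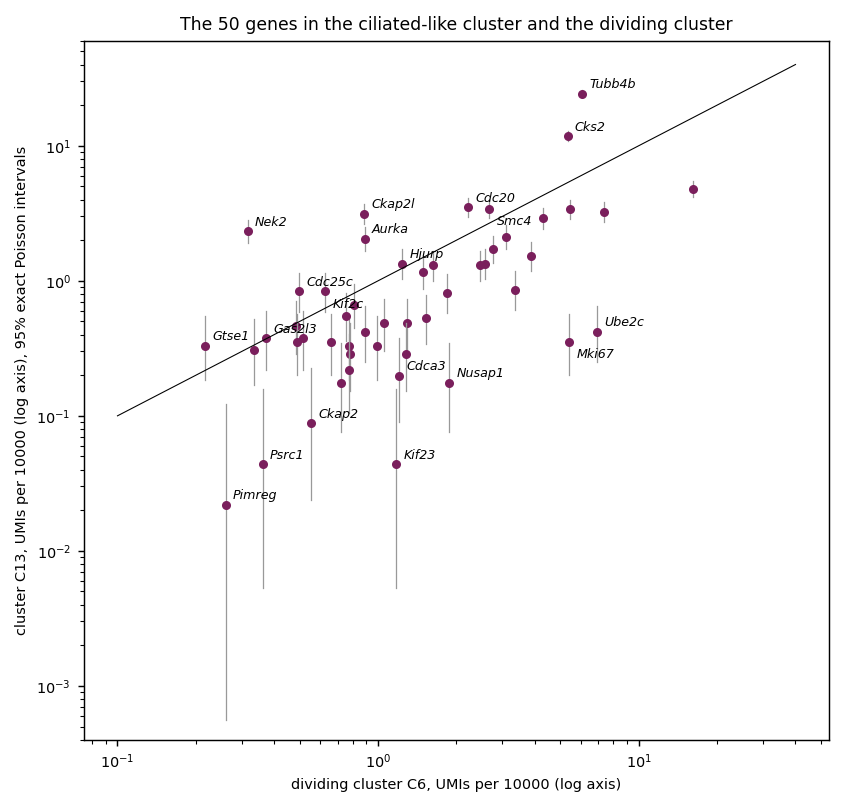
Level of the 50 genes in the 20 cells of the ciliated-like cluster C13 (vertical, 95% exact Poisson intervals) against the dividing cluster C6 (horizontal), both as UMIs per 10000 on log axes, with the line of equal levels. Tubb4b, Cks2, Nek2, Ckap2l, Aurka and Cdc20 lie above the line, and Ube2c, Mki67, Nusap1, Kif23 and Pimreg lie far below it.

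Within the dividing cluster the genes did not appear together. Each thinned cell was placed by the share of mitotic UMIs among its S-phase and other mitotic UMIs, with no member used. Cells with a share under 33.3% were called early (192 cells), those over 66.7% late (202 cells), and the rest middle (252 cells), and 175 cells lay within 0.05 of a limit. Median depth was alike in the early, middle and late cells, at 25204, 25958 and 26196 UMIs. From early to late cells 34 of the 50 genes were at least 2-fold higher, against 3.67% of 10418 genes. The ranges were set by mitotic genes that vary with these 50, so this rise is a description of the ranges. The median log2 difference was 1.61, against 0.048 over the 10418 genes. In both libraries 48 of the 50 genes were higher in the late cells. The share of all genes that were higher there was not computed.

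Ube2c had the steepest course with both libraries pooled. In the smaller and the larger library it stood at 0.582 and 0.795 in the early cells. It was at 4.36 and 5.98 in the middle cells and at 13.3 and 14.6 in the late cells. Its log2 difference was 4.32 [4.16 to 4.48]. Cenpa followed, from 0.0708 and 0.147 to 1.76 and 1.52, a difference of 3.73 [3.36 to 4.15]. In the smaller library alone Cenpa rose slightly more than Ube2c, by 4.58 against 4.51. Gas2l3, which links microtubules to actin during cytokinesis, went from 0.0435 and 0.0654 to 0.773 and 0.743, a difference of 3.69 [3.16 to 4.32]. Cdc20 and Aurka differed by 3.4 and 3.3. In each of these genes both libraries had their lowest value in the early and their highest value in the late cells.

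The roles differed in their course. All 10 spindle genes, all 4 kinesin genes and all 4 genes tied to the anaphase-promoting complex were at least 2-fold higher in late cells. Of the 7 chromosome genes 1 was, Cdca2, and of the 3 envelope genes none was. Top2a was at 5.13 and 5.65 in early and 8.57 and 8.2 in late cells, a difference of 0.61 [0.54 to 0.68]. Cdk1 itself was at 3.81 and 3.79 in early and 6.47 and 7.36 in late cells, whereas its cyclin gene Ccnb2 went from 0.18 and 0.396 to 2.12 and 2.49. The passenger kinase gene Aurkb differed by 0.69, against 3.3 for Aurka, and Cks1b by 0.62 against 2.12 for Cks2. The envelope genes Tmpo and Lbr were the only members not higher in late cells, with -0.035 [-0.13 to 0.055] and -0.27 [-0.53 to -0.022]. Lbr was at 0.561 and 0.55 in early and 0.459 and 0.457 in late cells, and Tmpo at 3.73 and 3.96 and 3.66 and 3.82. Anp32e was next, from 2.08 and 2.28 to 3.2 and 3.1. The ranges rest on 2 lists of transcripts and not on DNA content.

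**Figure D4:**
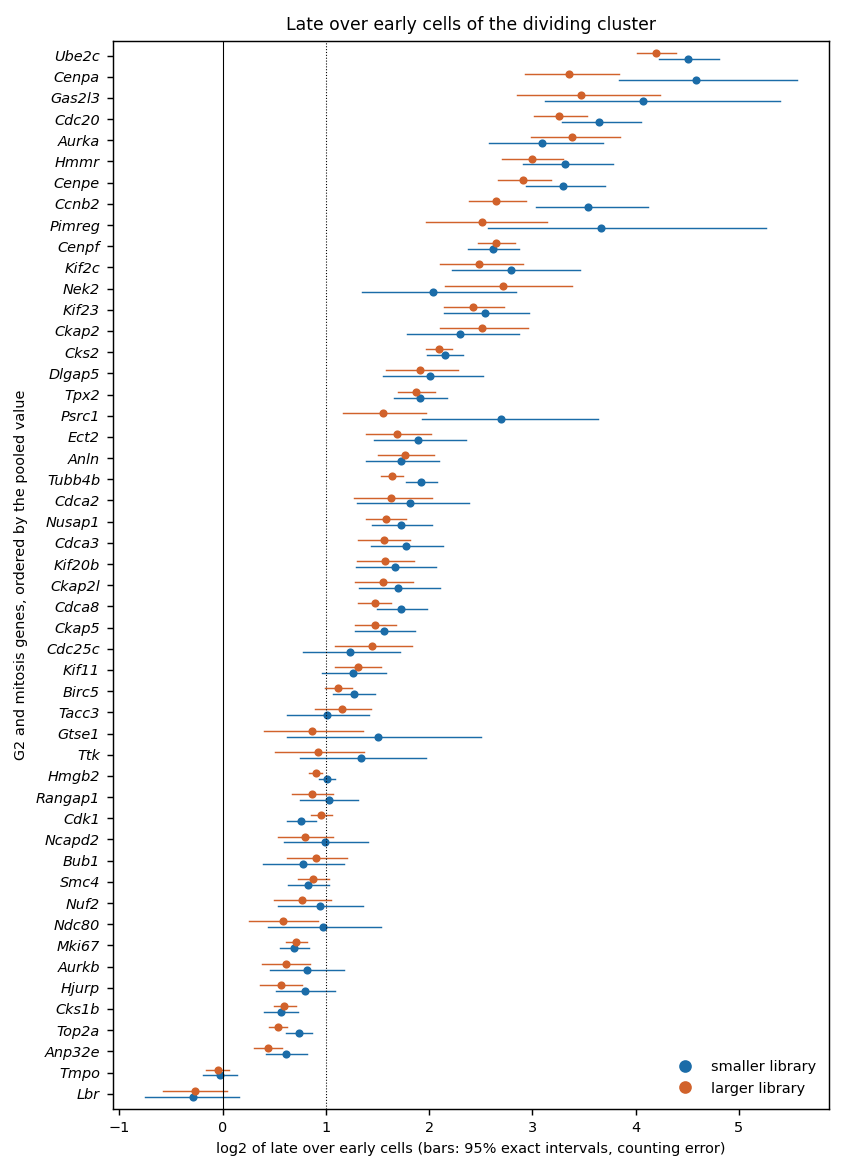
Log2 of the level in late over early cells of the dividing cluster for each of the 50 genes, in the smaller (blue) and the larger (orange) library, with 95% exact intervals, a solid line at 0 and a dotted line at 1. Both libraries give Ube2c values over 4, and Tmpo and Lbr lie at or under 0 in both.

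At a finer resolution 2 clusters were classed as dividing, and they differed in epithelial genes. One held 492 cells, with Aire at 6.76 and Ccl21a at 1.41 UMIs per 10000, and the other 126 cells, with Aire at 0.387 and Ccl21a at 43.3. Of these, 492 and 124 were among the 646 cells of the dividing cluster, and the rest of the 646 lay outside both. The 50 genes summed to 109 and 123. In the Aire-low cells 16 of the 50 genes were higher by over 0.5 on the log2 scale, against 24.1% of 11330 genes. Pimreg, a mitotic regulator, was at 0.175 and 0.228 in the Aire-high cells of both libraries and at 0.461 and 0.606 in the Aire-low cells. Ckap2 was at 0.434 and 0.469 against 1.15 and 1.16, and both libraries gave the same order for these genes. Cdc25c went the other way, with a log2 difference of -0.55 [-0.89 to -0.24]. Median depth was 28393 UMIs in the Aire-high and 17657 in the Aire-low cells, and its part in these differences was not tested.

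The libraries were then compared, to ask how the mitotic genes stood after irradiation, with the labels of the libraries in conflict as given above. Dividing cells made up 5.66% [4.89 to 6.51] of the kept cells of the smaller library (183 cells) and 9.13% [8.35 to 9.96] of those of the larger one (463 cells), a log2 ratio of 0.69 [0.44 to 0.94]. This ratio of shares was 0.90 without integration. It was 0.50 when cells with 3 or more UMIs of other mitotic genes after thinning were counted instead. Over all kept cells the 50 genes summed to 20.7 [20.5 to 20.8] and 27.2 [27.1 to 27.3] UMIs per 10000. All 50 genes were higher in the larger library, with a median log2 ratio of 0.55, against -0.062 over 18788 genes. The share of all genes that were higher was not computed. Of the 50 genes, 28 were past 0.5 and none was under -0.5, against 3.10% of 18788 genes past 0.5 and 13.5% under -0.5. Psrc1, which encodes a spindle protein, had the largest ratio, 1.03 [0.86 to 1.2], from 0.0735 and 0.15. Pimreg, at 0.87 [0.61 to 1.15], and Aurka, at 0.86 [0.72 to 1.0], followed, from 0.030 and 0.0552 and from 0.107 and 0.194. Hjurp, Rangap1 and Ttk were lowest, at 0.047 [-0.024 to 0.12], 0.12 [0.045 to 0.19] and 0.12 [-0.052 to 0.30]. Hjurp stood at 0.518 and 0.535, Rangap1 at 0.496 and 0.538 and Ttk at 0.0841 and 0.0916.

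With the level of each class of cells held at its pooled value, the shares of UMIs of all classes together gave a median log2 ratio of 0.38 over the 50 genes. The shares of C5 and C11 also differed between the libraries, and the part of the dividing cells alone was not tested. Within the dividing cluster the summed level was higher by 0.13 [0.12 to 0.15] in the larger library, and the median over the genes was 0.18. This size depended on the clustering and the cell filter, since the summed log2 ratio was 0.047 without integration and 0.038 with a minimum of 1000 detected genes. In the cluster as reported, 42 of the 50 genes were above 0, and the median over 11402 genes was 0.0145. The share of all genes above 0 was not computed. The interval lay above 0 for 33 of the 50, against 12.9% of 11402 genes. An interval leaves 0 more readily in a gene of many UMIs. The background took in genes from 50 UMIs, so these shares were not matched for the number of UMIs. Only 4 genes were past 0.5, a share of the members near the 6.26% of all genes, and none was under -0.5, where 3.75% of all genes were. Gtse1, a microtubule-binding regulator of the G2 checkpoint, had the largest ratio, 0.63 [0.29 to 1.0], with 0.157 and 0.245. Psrc1 followed with 0.59 [0.32 to 0.86] from 0.269 and 0.404, and Aurka with 0.57 [0.40 to 0.74] from 0.669 and 0.994. The count past 0.5 was 2 without integration and 1 with a minimum of 1000 detected genes. The make-up also differed at the finer resolution, whose dividing clusters did not take in all of these cells. The smaller library had 150 Aire-high and 26 Aire-low cells there, and the larger one had 342 and 100. Pimreg, at 0.51 [0.20 to 0.84], was one of the 4 genes and was higher in the Aire-low cells of both libraries, and the part of this make-up in its ratio was not tested.

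At the lower end Hmgb2 was the single gene whose interval lay under 0, with -0.14 [-0.17 to -0.10] from 17.2 and 15.6. Lbr, at -0.053 [-0.26 to 0.16], from 0.527 and 0.508, and Mki67, at -0.049 [-0.11 to 0.014] from 5.54 and 5.36, did not differ beyond counting error. The S-phase genes lay on the other side of 0, with a median of -0.19 and 6 of 43 above 0. Late cells were 27.3% [21. to 34.4] of the dividing cells of the smaller and 32.8% [28.6 to 37.3] of those of the larger library. With the 3 ranges weighted equally in both libraries, the median ratio of the 50 genes became 0.081 and Gtse1, at 0.58, was the single gene past 0.5.

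Of the regulators, Cdkn1a stood apart in dividing cells, at 0.242 [0.202 to 0.286] in the smaller and 0.884 [0.831 to 0.94] in the larger library, a log2 ratio of 1.87. It was the single one of the 20 past 0.5 there. Foxm1 differed by -0.053 and E2f1 by -0.35. In the resting clusters 17 of the 50 genes were past 0.5, against 3.55% of 18418 genes. On the other side 12 of the 50 were below 0, 5 of them with an interval under 0. The shares of all genes on that side of 0 were not computed. The summed level of the 50 was higher by 0.11. The resting class included C7, with 4.86% of the cells of the smaller and 6.55% of those of the larger library. The part of C7 in this difference was not tested. Resting clusters held some cells with 3 or more UMIs of other mitotic genes after thinning, 6.73% of them in the smaller and 8.53% in the larger library. These genes included Pttg1, which was not higher in dividing cells, so such a cell need not be dividing. Without the cells of 3 or more such UMIs, 8 genes were past 0.5 and the summed level was higher by 0.031. These cells were picked by genes that vary with the 50, and a larger share was removed from the larger library. The removal itself therefore tends to lower both values. The share of all genes past 0.5 was not computed after it.

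**Figure D5:**
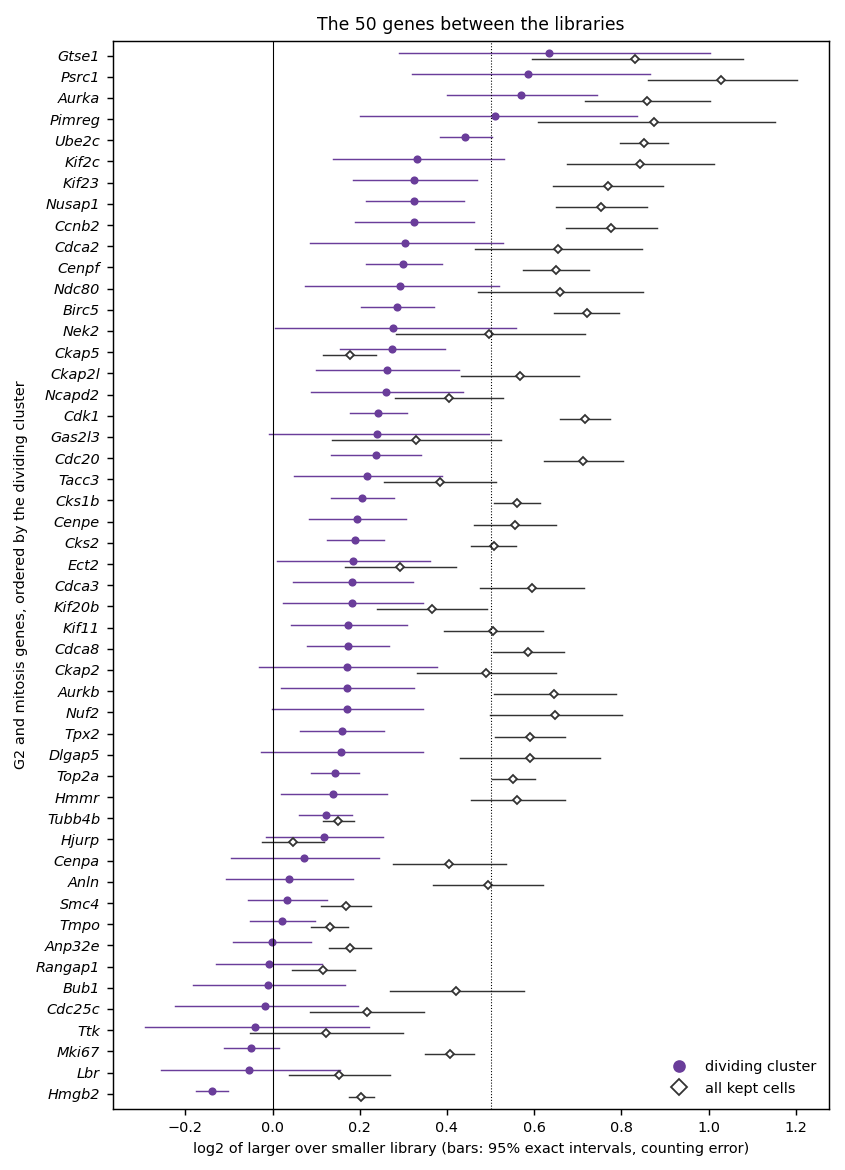
Log2 ratio of the larger over the smaller library for each of the 50 genes in the dividing cluster (filled circles) and over all kept cells (open diamonds), with 95% exact intervals, a solid line at 0 and a dotted line at 0.5. Over all kept cells every gene lies above 0, while in the dividing cluster Gtse1, Psrc1, Aurka and Pimreg lie past 0.5. In that cluster 8 genes lie under 0, and only Hmgb2 has its whole interval under 0.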

How the data were processed

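Per the study's methods and the labels, thymi were digested, TECs were sorted and pooled, and 3' libraries were aligned to mm10. Per the file headers the matrices were written by Cell Ranger 5.0.1, while the submitters' processing notes name version 5.1. The values are raw UMI counts per gene and barcode, as the authors deposited them. The labels give 9 weeks of age, and their protocol text another age. Barcodes with over 2000 and under 7500 detected genes (of genes found in at least 5 barcodes) and under 15% mitochondrial counts were kept, and no doublets were removed. Cells were clustered with Seurat 5.3.0 in R 4.3.3 (3000 variable genes per library, 2000 integration features, 20 components, resolution 0.5), without the 50 genes and 43 S-phase genes. A cluster was dividing at 20 or more S-phase and 20 or more other mitotic UMIs per 10000, and resting under 10 and 5. These limits were set after the values of those lists were seen, and the members and lists were chosen with earlier results of these data known. Levels, exact Poisson, binomial and conditional binomial 95% intervals were computed in Python 3.11.15 with SciPy 1.17.1, and genes needed 50 UMIs over both sides to enter a background. Log2 ratios had 0.5 UMIs added to each side. Coordinates are from the GENCODE annotation of GRCm38, and promoter sequences from RefSeq. By the rule for named genes, values per library are given for the 3 highest and 3 lowest genes of a comparison and the highest of each role. With 1 library per condition no test was made. The scripts were tested on simulated data. The alternatives tried were other filters on cells, other clusterings, means over cells and the removal of cells or clusters.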

Additional observations from a re-analysis of the deposited data

Results flagged for a closer look

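The summed level of the 50 genes was lower in the larger library in cluster C11, the thymocyte-led cluster, with a log2 ratio of -0.80, while it was higher by 0.13 in the dividing cluster. It was singled out because the 2 clusters lay on opposite sides of 0 under the same contrast. C11 had 37 cells in the smaller and 110 in the larger library, and the difference between the clusters was not tested. No other cluster was put through this check. The tuft-like cells, at -0.069, and C13, at -0.00060, also lay under 0, with intervals that held 0.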

How the results depend on the processing

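Under other settings 19 values moved and 0 turned in direction. Only log2 values could turn, since a count has no direction. The clusters were classed by mitotic and S-phase genes, so the median of dividing over resting cells could hardly turn either. A count was taken as moved when it was not within 1.5 times the reported count. Clustering does not enter the values over all kept cells, so other clusterings could not move them. No paired analysis was possible because there was 1 library per condition, and no library could be left out. The median log2 difference between dividing and resting cells (4.54) was 4.90 as a mean over cells, 4.95 without resting cells of 3 or more other mitotic UMIs, 4.91 with a minimum of 1000 detected genes, 4.89 with that minimum and without thymocyte-led clusters, 4.75 with under 10% mitochondrial counts and 5.09 with all variable genes. In the dividing cluster the count past 0.5 (4) was 1 with the ranges weighted equally, 1 with 1000 genes and 2 without integration. The summed log2 ratio there (0.13) was 0.12 as a mean over cells, 0.045 with the ranges weighted equally, 0.038 with 1000 genes, 0.10 with 1000 genes and no thymocyte-led cluster, 0.11 with under 10% mitochondrial counts and 0.047 without integration. With 1000 genes the dividing class took in 72 cells of a thymocyte-led cluster. Over all kept cells the summed ratio (0.39) was 0.45 without the thymocyte-led cluster and 0.37 with under 10% mitochondrial counts. In the resting clusters the count past 0.5 (17) became 8, and the summed ratio (0.11) became 0.031, without cells of 3 or more other mitotic UMIs. The removal of resting and thymocyte-led cells was chosen after seeing the data. The cause of these moves was not tested. Intervals cover counting error and not the spread between mice, and genes of few UMIs, such as Pimreg and Gtse1, have wide ones.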
